A study of Mus musculus with 14 samples.

Results

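Genes for hepatocyte secreted plasma proteins and apolipoproteins were examined in a mouse hepatocellular carcinoma (HCC) cell line lacking one or both of the enzymes that make cytosolic acetyl-CoA. The set was named by symbol and covers carriers and acute phase proteins, serpins, apolipoproteins, coagulation factors, complement factors, inter-alpha-trypsin inhibitor heavy chains and an IGF binding protein. Of 59 symbols named, 58 had a row among the 24972 gene symbols listed. The symbol Tf, the human name of transferrin, had none, and the mouse gene Trf was listed. The rule that names the set reads no measured value, but the genes were chosen with earlier results of these data known.

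RNA was sequenced from 14 libraries, 4 of WT, 4 of ACLY KO, 3 of ACSS2 KO and 3 of DKO1, all from cells grown in DMEM with calf serum. All lines descend from cells with floxed Acly alleles, isolated from tumors induced with diethylnitrosamine, and the WT cells still carry those alleles. ACLY KO cells had lost Acly, the gene of ATP-citrate lyase, through adenoviral Cre and came from a single-cell clonal population. WT and ACLY KO cells then received empty LentiCRISPR v2 as bulk populations. ACSS2 KO (from WT) and DKO1 (from ACLY KO, lacking both enzymes) received the same vector with a guide to the first exon of Acss2. Acss2 is the gene of the acetate-using acetyl-CoA synthetase. Each of them was a single-cell clone. The effect of a genotype and of its clone therefore cannot be told apart, for ACLY KO as well. Since DKO1 was made from ACLY KO cells, ACLY KO and DKO1 are not independent losses of Acly. The RNA-seq experiment was not repeated independently, and the p-values measure only the spread between these libraries. The deposited values are counts divided by DESeq normalization factors, called normalized counts below, with library totals between 23565707 and 26946164 and an implied depth of 19221703 to 33382516 reads. Acly was between 5461 and 6435 normalized counts in WT and between 965 and 1084 in ACLY KO. Acss2 was 237 ± 11.5 (SD, n = 4) in WT against 132 ± 4.88 (SD, n = 3) in the ACSS2 KO libraries, whereas it was 718 ± 56.7 (SD, n = 4) in ACLY KO against 535 ± 69.1 (SD, n = 3) in DKO1. Acss2 was thus lower in each clone made with the guide than in the line it came from, although DKO1 stood above WT.

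Hepatocytes supply most of the proteins of blood plasma. Albumin and transthyretin carry hormones and small molecules, apolipoproteins package lipids into lipoprotein particles, and coagulation and complement factors circulate as inactive precursors that are cut when they are needed. Their genes are switched on as the liver matures, under transcription factors such as HNF4α and C/EBPα, and the acute phase members rise when interleukin-6 reaches the cell. For these reasons the set is commonly read as a measure of hepatocyte differentiation.

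Only part of the set was detected at a level that could be tested. A mean of at least 10 normalized counts over all 14 libraries was reached by 20 genes of the set, or 34.5%, against 50.9% of all listed genes. Another 31 lay between 0 and that mean, and 14 of these never reached 3 in any library. The remaining 7 were listed at 0 in every library, namely the acute phase genes Saa1 and Saa2, the apolipoproteins Apoc2 and Apoc3, the coagulation genes F11 and Plg, and the complement receptor C5ar1. This is 12.1% of the set against 22.0% of all listed genes. By role, the genes tested were 5 of 12 carriers and acute phase genes (Alb, Rbp4, Hp, Orm1, Hpx), 1 of 9 serpins (Serpinf1), 4 of 12 apolipoproteins (Clu, Apob, Apoe, Apoa2), 2 of 13 coagulation genes (Pros1, Proc), 5 of 7 complement genes (C3, C1ra, C1s1, Cfi, C4b) and 3 of 5 of the last group (Itih2, Itih3, Itih4). Complement was thus the group detected most fully and the serpins and coagulation factors the least, as a count without a test.

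Among the genes at or near 0 were several that define mature hepatocytes. Ahsg, which encodes fetuin-A, reached 1.12 at most, Apoa1, the main protein of high density lipoprotein, 1.5, and the fibrinogen chains Fga and Fgg 1.88 and 2.21. Prothrombin (F2) reached 2.32 and antithrombin (Serpinc1) 3.55, and F7, F9 and F10 each had a value above 0 in a single library. Just under the limit lay Cfb (9.06 over all libraries), Ambp (9.84) and Ttr (9.92), and just over it Hpx (14.1), Orm1 (21.2) and Apoa2 (26.5).

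**Figure D1:**
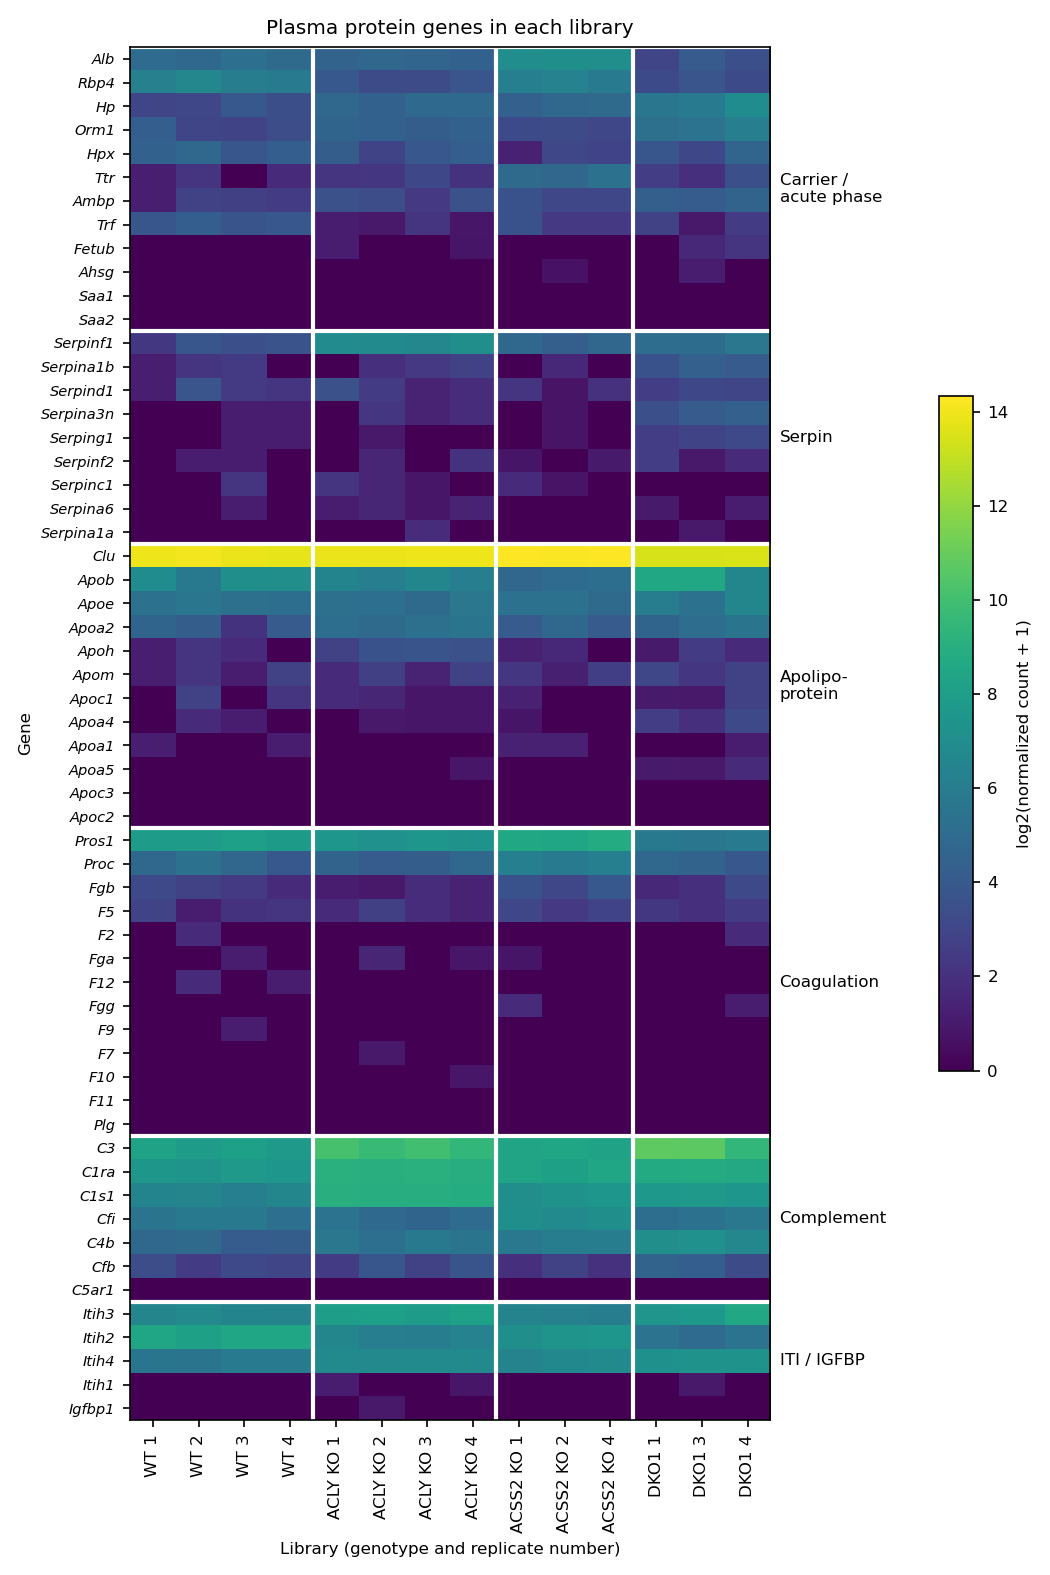
Each row is a gene of the set, ordered within its role by mean level, and each column is a library. Color gives log2(normalized count + 1). Clu stands out in every library, the complement and inter-alpha-trypsin inhibitor genes hold most of the other high values, and most serpin and coagulation genes are dark across all 4 genotypes.

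Clu, which encodes the chaperone-like apolipoprotein clusterin, dominated the set. Per kilobase of exon its mean level over all libraries was 4563 normalized counts, above 99.1% of the genes with an annotated length. Averaged over all 14 libraries, the next levels were 137 for C3 (72.2% of genes lower), 121 for C1ra (70.7%), 76.5 for C1s1 and 51.5 for Pros1. This order did not hold in each genotype. In WT Itih2 came next after Clu with 101, followed by C1ra with 63.3, Pros1 with 58.0, Rbp4 with 54.6 and C3 with 49.5, and C3 reached 268 in DKO1. Alb, among the most abundant transcripts of adult liver, stood at 20 normalized counts per kilobase over all libraries, between 4.84 in DKO1 and 57.1 in ACSS2 KO, with 56.5% of genes lower. Summed over the set, normalized counts without Clu were between 1643 and 1802 in WT and 2150 and 2328 with ACSS2 lost, against 2870 and 3402 in the ACLY KO libraries and 2782 and 3750 in those of DKO1. The ranges of ACLY KO, ACSS2 KO and DKO1 all lay above that of WT. These sums weigh the highest genes most, and C3 alone had a mean of 254.7 in WT, 926.7 in ACLY KO and 1379.9 in DKO1. They do not show a rise of every gene, since Alb, Rbp4, Itih2 and Pros1 had lower means in DKO1 than in WT. Counts of genes higher and lower in each genotype are given below. With Clu included the set took between 0.0623% and 0.0705% of all normalized counts in WT, 0.0757% and 0.0793% in ACLY KO, 0.0909% and 0.0946% in ACSS2 KO, and 0.0535% and 0.0630% in DKO1.

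Differences between genotypes were tested with limma on log2(normalized count + 1) over 12711 genes. Log2 fold changes below are on that scale, with the standard error. A mean said to be some number of fold lower is instead a ratio of mean normalized counts. A gene is said to rise or fall where the Benjamini-Hochberg adjusted p over all 12711 genes was under 0.05. The added 1 shrinks the change of low genes. Of the 20 genes tested, 14 differed between ACLY KO and WT (10 higher, 4 lower), where 48.5% of all genes tested did (23.8% higher, 24.7% lower). Also 14 differed between ACSS2 KO and WT (11 higher, 3 lower), against 26.0% of all genes (15.1% higher, 11% lower). DKO1 and WT differed in 16 (11 higher, 5 lower), against 56.0% (27.9% higher, 28.1% lower). With the stricter limit of an absolute log2 fold change over 1.5 and adjusted p under 0.01, the counts were 5, 3 and 9 of 20, against 8.8%, 2.42% and 9.84% of all genes. The median log2 fold change of the 20 was 0.50, 0.65 and 1.17 in ACLY KO, ACSS2 KO and DKO1 against WT, and the median over all genes tested was -0.01, 0.00 and 0.00. The 3 comparisons share the WT libraries. In bulk RNA, fewer cells that express a gene and less of its RNA per cell cannot be told apart.

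**Figure D2:**
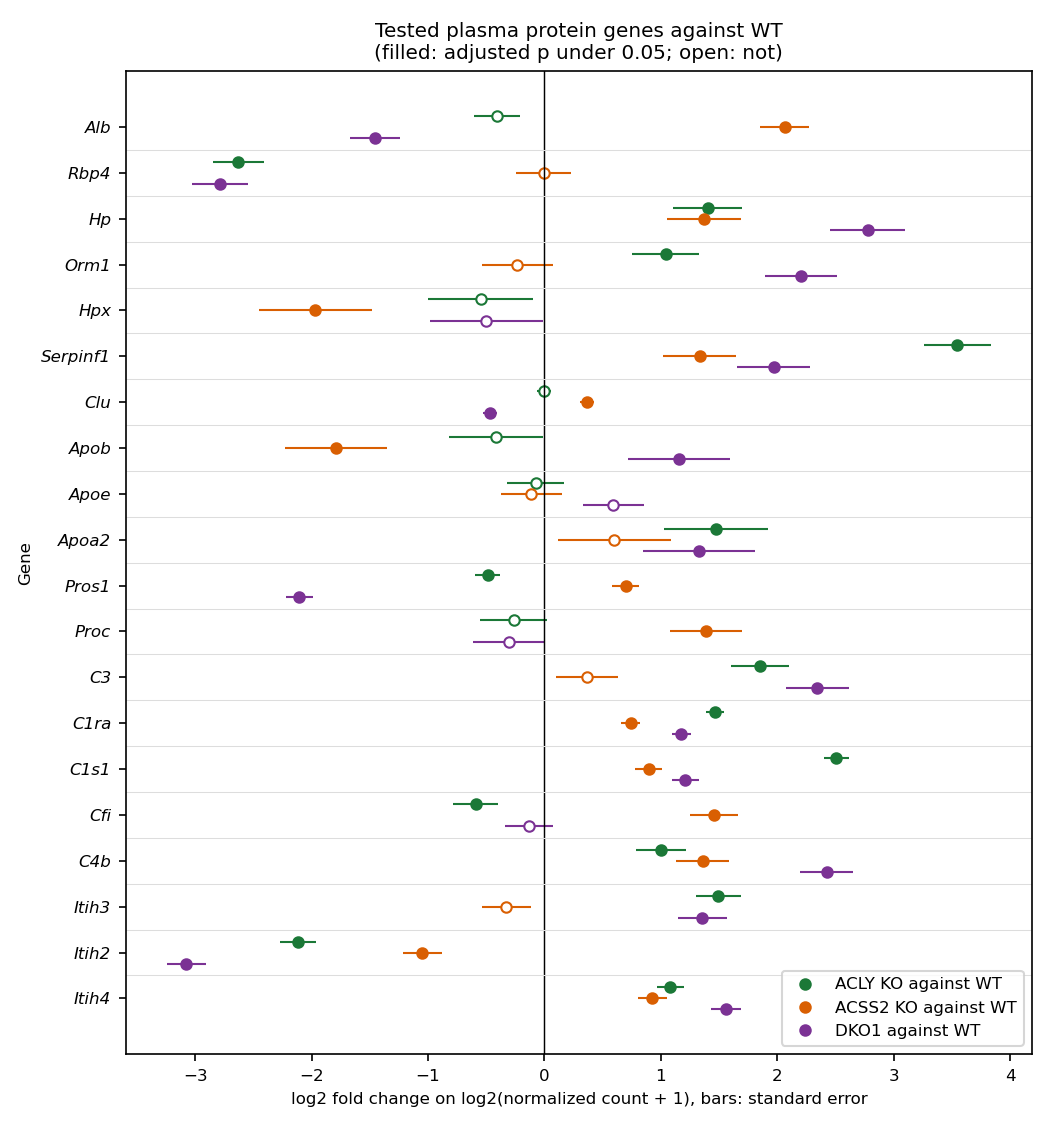
The horizontal axis is the log2 fold change against WT on log2(normalized count + 1), with bars for the standard error, for the 20 genes tested. Filled points have an adjusted p under 0.05 and open points do not. Most complement genes and Itih4 lie to the right in all 3 comparisons, Itih2 lies to the left in all 3, and Alb, Pros1 and Clu lie to the right in ACSS2 KO and to the left in DKO1.

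In 8 of the 20 genes all 3 mutant genotypes differed from WT, as in 14.9% of all genes tested. Apoe alone differed from WT in none, although it passed in DKO1 without library 3. The 8 were Hp, Serpinf1, Pros1, C1ra, C1s1, C4b, Itih2 and Itih4. Hp, Serpinf1, C1ra, C1s1, C4b and Itih4 were higher than WT in every mutant genotype and Itih2 was lower in every one, whereas Pros1 rose in ACSS2 KO and fell in the other two.

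The upstream sequences of 6 genes are shown because these genes had the largest falls (Rbp4, Pros1, Alb) and rises (C3, Itih4, Apoa2) in DKO1 against WT, among those whose upstream window overlapped no annotated exon and whose annotated starts differed by at most 50 bases. Each is the 250 bases before the RefSeq transcription start in GRCm38.p6, written 5′ to 3′ on the strand of the gene. Capitals mark matches on either strand to TATAAA (the TATA box core), CCAAT (the CCAAT box), TTNNGNAA (C/EBP type) or TTCNNNGAA (STAT type), where N is any base. None of these letter patterns overlapped another in the windows shown.
Rbp4, chr19:38125322-38125571, minus strand: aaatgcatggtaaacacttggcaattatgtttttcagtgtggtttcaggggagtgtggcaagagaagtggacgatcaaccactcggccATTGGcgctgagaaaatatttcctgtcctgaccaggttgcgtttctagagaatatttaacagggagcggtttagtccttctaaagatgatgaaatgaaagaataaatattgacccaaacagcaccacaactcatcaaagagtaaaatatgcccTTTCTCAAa
Pros1, chr16:62854057-62854306, plus strand: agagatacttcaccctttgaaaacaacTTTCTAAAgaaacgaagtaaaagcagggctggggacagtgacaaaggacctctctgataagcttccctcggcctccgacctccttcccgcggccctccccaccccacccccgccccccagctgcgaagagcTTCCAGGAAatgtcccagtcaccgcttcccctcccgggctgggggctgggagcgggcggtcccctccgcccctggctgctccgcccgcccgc
Alb, chr5:90460620-90460869, plus strand: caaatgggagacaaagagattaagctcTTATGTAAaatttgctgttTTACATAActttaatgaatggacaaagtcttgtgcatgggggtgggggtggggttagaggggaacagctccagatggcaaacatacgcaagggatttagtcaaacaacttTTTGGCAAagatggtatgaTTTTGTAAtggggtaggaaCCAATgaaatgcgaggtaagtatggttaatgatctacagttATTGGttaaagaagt
C3, chr17:57228137-57228386, minus strand: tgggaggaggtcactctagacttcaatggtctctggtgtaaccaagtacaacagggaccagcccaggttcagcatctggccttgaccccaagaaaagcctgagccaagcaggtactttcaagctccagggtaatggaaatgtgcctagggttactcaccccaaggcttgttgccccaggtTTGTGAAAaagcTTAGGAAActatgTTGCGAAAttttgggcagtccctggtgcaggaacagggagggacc
Itih4, chr14:30886226-30886475, plus strand: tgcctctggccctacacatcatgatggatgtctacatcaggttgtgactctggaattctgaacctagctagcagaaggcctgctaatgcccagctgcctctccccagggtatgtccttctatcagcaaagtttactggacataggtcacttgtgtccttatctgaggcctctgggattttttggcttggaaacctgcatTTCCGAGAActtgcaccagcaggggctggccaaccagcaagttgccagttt
Apoa2, chr1:171224804-171225053, plus strand: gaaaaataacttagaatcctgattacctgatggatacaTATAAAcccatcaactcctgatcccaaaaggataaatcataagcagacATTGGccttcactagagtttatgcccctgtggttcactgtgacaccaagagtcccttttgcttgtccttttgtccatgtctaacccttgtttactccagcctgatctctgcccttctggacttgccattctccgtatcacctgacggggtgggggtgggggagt

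The Alb window held the most matches of the 6, with 4 of C/EBP type and the CCAAT box at -56 and at -15 from the start. C3 had 3 C/EBP type matches between -70 and -38, Itih4 a STAT type match at -51, and Pros1 one STAT type match at -92 and a C/EBP type match at -223. Rbp4 had a CCAAT box at -162 and a C/EBP type match at -9. Apoa2 was the one with a TATAAA, at -212, and had a CCAAT box at -164. Sequences were held for 44 of the 58 genes. The C/EBP type was found in 23 of these 44 (52.3%) and in 37.0% of all 27025 promoter windows, the STAT type in 5 (11.4%, against 7.1%), CCAAT in 12 (27.3%, against 34.5%) and TATAAA in 4 (9.09%, against 13%). A match is a description of letters only, and no binding was measured.

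Among the carriers and acute phase genes, the carrier Alb rose in ACSS2 KO and fell in DKO1. The carrier Rbp4 fell in ACLY KO and in DKO1, which was made from ACLY KO. The acute phase genes Hp and Orm1 were highest in DKO1. Alb, at chr5:90460897-90476602 on the plus strand of GRCm38, encodes serum albumin. It had 30.7, 27.7, 36.9 and 30.3 normalized counts in the WT libraries, 22.5, 25.4, 24.8 and 20.8 in ACLY KO, 128.5, 137 and 135 in ACSS2 KO and 7.1, 16.4 and 10.5 in DKO1. All 3 ACSS2 KO libraries lay above, and all 3 DKO1 libraries below, every library of the other genotypes. Against WT the log2 fold change was 2.06 ± 0.21 (adjusted p = 1.43e-05) in ACSS2 KO, -1.46 ± 0.21 (adjusted p = 7.29e-05) in DKO1 and -0.41 ± 0.20 (adjusted p = 0.109) in ACLY KO, where it did not pass the test although the libraries of ACLY KO and WT did not overlap. The test was passed there without DKO1 library 1 (adjusted p = 0.0416) or 3 (adjusted p = 0.0362).

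Rbp4, which encodes the plasma carrier of retinol, lies at chr19:38116629-38125281 on the minus strand. Its values were 74.3, 98.3, 63.2 and 57.2 in WT and 71.9, 81.6 and 62.1 in ACSS2 KO, against 14.3, 8.6, 8.66 and 12.5 in ACLY KO and 8.32, 12.6 and 8.18 in DKO1. The genotypes with and without Acly did not overlap, and the genotypes that shared an Acly state did. The mean fell 6.65-fold in ACLY KO (-2.63 ± 0.22, adjusted p = 5.41e-07) and 7.54-fold in DKO1 (-2.79 ± 0.24, adjusted p = 6.21e-07), while the difference between ACSS2 KO and WT did not pass the test (-0.01 ± 0.24, adjusted p = 0.99). DKO1 and ACLY KO differed by -0.16 ± 0.24 (adjusted p = 0.647).

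Hp encodes haptoglobin, which binds free hemoglobin, and Orm1 encodes the acute phase glycoprotein orosomucoid. Hp had 6.99, 7.39, 14.3 and 9.95 in WT and 20.3, 28 and 29.4 in ACSS2 KO, against 27.3, 21.1, 28.3 and 28.9 in ACLY KO and 47.5, 56 and 125.5 in DKO1, so that each mutant genotype lay wholly above WT and DKO1 above all. Its log2 fold change against WT was 1.40 ± 0.30 (adjusted p = 0.00148) in ACLY KO, 1.37 ± 0.32 (adjusted p = 0.0064) in ACSS2 KO and 2.78 ± 0.32 (adjusted p = 8.9e-06) in DKO1. The largest value, 125.5 in DKO1 library 4, was more than that of the other 2 libraries together, and without that library the fold change was 2.35 (adjusted p = 8.64e-06). Orm1 had 18.7, 6.92, 6.7 and 9.33 in WT and 8.18, 8.54 and 7.3 in ACSS2 KO, against 23.7, 20.7, 18 and 20.8 in ACLY KO and 37.5, 42.5 and 67.5 in DKO1. The DKO1 libraries lay above all others, and the WT library at the top of its range overlapped ACLY KO. Orm1 rose in ACLY KO (1.04 ± 0.29, adjusted p = 0.00845) as well as in DKO1 (2.20 ± 0.31, adjusted p = 4.88e-05) and did not pass the test in ACSS2 KO (-0.23 ± 0.31, adjusted p = 0.649). Reads from Orm1 could be shared with its near copies Orm2 and Orm3, whose means were 12.2 and 7.17 in WT and 151 and 55.5 in DKO1, so the assignment between the 3 is uncertain. Hpx, the gene of the heme carrier hemopexin, fell in ACSS2 KO, from 20.3 ± 5.91 (SD, n = 4) in WT to 4.97 ± 3.05 (SD, n = 3) (-1.97 ± 0.49, adjusted p = 0.0091).

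Below the limit for testing, Ttr, the gene of the thyroid hormone and retinol carrier transthyretin, had 30.4, 25 and 39.7 in ACSS2 KO and at most 10.2 in any other library. Trf, the gene of the iron carrier transferrin, had 13.3, 18.5, 12.3 and 14 in WT and 1.18, 0.941, 3.43 and 0.828 in ACLY KO. With no filter on low values these differences passed the test, with a log2 fold change of 3.73 (adjusted p = 0.000141) for Ttr in ACSS2 KO against WT and of -2.67 (adjusted p = 0.000262) for Trf in ACLY KO against WT. In that fit 1 of the 31 low genes differed between ACSS2 KO and WT, 4 between ACLY KO and WT and 9 between DKO1 and WT, where 16.5%, 35.3% and 40.3% of all genes did. Ambp, which encodes the precursor of α1-microglobulin and bikunin, had 19.4, 17.3 and 23 in DKO1 and 1.32, 5.8, 5.63 and 4.7 in WT (2.07, adjusted p = 0.00091).

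Serpins were nearly silent apart from Serpinf1, the gene of pigment epithelium-derived factor, which rose in every mutant genotype and most in ACLY KO. Serpinf1, at chr11:75409769-75422701 on the minus strand, had 3.95, 13.1, 10.2 and 11.6 in WT and 27.7, 19.5 and 26 in ACSS2 KO, against 121, 112, 97.6 and 133.5 in ACLY KO and 34.2, 32.3 and 49.8 in DKO1. No 2 of the genotypes overlapped. The log2 fold change against WT was 3.54 ± 0.29 (adjusted p = 3.98e-07) in ACLY KO, the largest rise of any gene of the set in that comparison, 1.33 ± 0.31 (adjusted p = 0.00649) in ACSS2 KO and 1.97 ± 0.31 (adjusted p = 0.000143) in DKO1. Serpinf1 is also made by fibroblasts and stellate cells, whose markers are described below. Of the 8 low serpins, 3 passed the test in DKO1 against WT in the fit without a filter, where 40.3% of all genes did. Serpina1b, an α1-antitrypsin gene, had 11.2, 20.2 and 16.3 in DKO1 and at most 5.81 elsewhere, Serpina3n, an antichymotrypsin gene of the acute phase, had 10.2, 16.4 and 19.7 and at most 3.76 elsewhere, and Serping1, the C1 inhibitor gene, had 5.1, 6.74 and 8.1 and at most 1.17 elsewhere. The log2 fold changes were 2.58 (adjusted p = 0.00948) for Serpina1b, 3.44 (adjusted p = 8.59e-05) for Serpina3n and 2.36 (adjusted p = 0.000169) for Serping1. Serpina1b has near copies, and reads may have been split among them.

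The apolipoproteins did not move together. Clu rose in ACSS2 KO and fell in DKO1, Apob fell in ACSS2 KO and was highest in DKO1, Apoa2 rose in both genotypes without Acly, and Apoe did not pass the test in any comparison with all libraries included. Clu, at chr14:65968483-65981547 on the plus strand, had 15809, 17167, 15438 and 14295 in WT and 20465, 19676 and 20354 in ACSS2 KO, against 15367.5, 15239, 15639 and 16159 in ACLY KO and 11105, 11219.7 and 11624 in DKO1. The ACSS2 KO libraries lay above and the DKO1 libraries below all others, and WT and ACLY KO overlapped. The changes were small and well above the spread, at 0.37 ± 0.06 (adjusted p = 0.000893) in ACSS2 KO and -0.47 ± 0.06 (adjusted p = 3.95e-05) in DKO1. In ACLY KO the difference from WT was 0.00 ± 0.06 (adjusted p = 0.961).

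Apob, at chr12:7977648-8016835 on the plus strand, encodes the structural protein of very low density lipoprotein. It had 122, 55.4, 138 and 134.5 in WT and 25.2, 30.6 and 34.6 in ACSS2 KO, against 88.7, 68.1, 95.2 and 68.3 in ACLY KO and 386.5, 366 and 94.3 in DKO1. The ACSS2 KO libraries were below all others, whereas DKO1 library 4 lay within the range of WT and the other 2 DKO1 libraries far above it. Apob fell in ACSS2 KO (-1.79 ± 0.44, adjusted p = 0.0085) and rose in DKO1 against WT (1.16 ± 0.44, adjusted p = 0.0389). The rise in DKO1 did not pass the test without WT library 1 (1.22, adjusted p = 0.054) or 2 (0.85, adjusted p = 0.0992), ACSS2 KO library 2 (1.16, adjusted p = 0.0501) or DKO1 library 1 (0.81, adjusted p = 0.157) or 3 (0.85, adjusted p = 0.156), and was larger without DKO1 library 4 (1.82, adjusted p = 0.000182). WT library 2 and DKO1 library 4 had low values for genes with long transcripts, as described below.

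Apoa2, which encodes a protein of high density lipoprotein, had 23.5, 17.6, 3.23 and 16.4 in WT and 16.1, 27.9 and 16.3 in ACSS2 KO, against 35.7, 29.6, 38.4 and 44.1 in ACLY KO and 23.9, 33.7 and 44.4 in DKO1. ACLY KO and DKO1 both lay above WT, and DKO1 overlapped ACSS2 KO. Apoa2 rose in ACLY KO (1.47 ± 0.45, adjusted p = 0.0152) as well as in DKO1 (1.33 ± 0.48, adjusted p = 0.033), the latter not passing the test without DKO1 library 4 (1.12, adjusted p = 0.0892) or without DKO1 library 3 (1.31, adjusted p = 0.0714). Apoe, the ligand through which remnant particles bind their receptors, had 63, 38.9 and 93.7 in DKO1 against 40, 48.7, 38.5 and 35.3 in WT, which overlapped (0.59 ± 0.26, adjusted p = 0.0725). Without DKO1 library 3 the difference passed the test (0.91, adjusted p = 0.00689). Apoh, the gene of β2-glycoprotein I, was low throughout, with 5.92, 11.3, 12 and 10.8 in ACLY KO and at most 4.82 elsewhere (2.15, adjusted p = 0.00393 in ACLY KO against WT without a filter). The neighbors Apoa1, Apoc3, Apoa4 and Apoa5 on chromosome 9 all stayed below 8, with Apoa4 reaching 7.94 in DKO1.

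Of the coagulation genes, only the anticoagulant pair Pros1 and Proc was detected well enough to test. Pros1, at chr16:62854307-62929346 on the plus strand, encodes protein S, the cofactor of the protease protein C that Proc encodes. Pros1 had 228, 233, 269 and 219 in WT and 370.1, 348 and 440 in ACSS2 KO, against 180, 153.5, 181 and 161 in ACLY KO and 54.1, 47.6 and 61.9 in DKO1. No genotypes overlapped. The level rose in ACSS2 KO (0.70 ± 0.12, adjusted p = 0.000691) and fell in ACLY KO (-0.49 ± 0.11, adjusted p = 0.00224) and further in DKO1 (-2.10 ± 0.12, adjusted p = 1.42e-08), where the mean was 4.35-fold below WT. Protein S is also made outside the liver, for example by endothelial cells. Proc had 26.5, 41.3, 25.1 and 14.1 in WT and 72, 58.6 and 71.2 in ACSS2 KO, where it rose (1.39 ± 0.31, adjusted p = 0.00503). Its means in ACLY KO and DKO1, 21 ± 4.45 (SD, n = 4) and 20.8 ± 6.46 (SD, n = 3), did not pass the test against WT, with log2 fold changes of -0.26 ± 0.29 (adjusted p = 0.484) and -0.30 ± 0.31 (adjusted p = 0.43). Fgb, a fibrinogen chain, was the most abundant coagulation gene not tested and had 11.2, 7.13 and 14.6 in ACSS2 KO against 1.19, 0.941, 2.57 and 1.66 in ACLY KO.

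Of the 5 complement genes tested, 4 rose and Cfi fell in ACLY KO, where 23.8% of all genes rose, 4 rose in ACSS2 KO (all but C3), where 15.1% of all genes did, and 4 rose in DKO1 (all but Cfi), where 27.9% did. C3 is the central component whose cleavage drives all complement pathways. At chr17:57203970-57228136 on the minus strand, it had 309, 234, 271 and 205 in WT and 322, 345 and 307 in ACSS2 KO, against 1156, 842.5, 1003 and 705 in ACLY KO and 1768, 1648 and 724 in DKO1. ACLY KO and DKO1 lay wholly above WT and ACSS2 KO, and DKO1 library 4 fell within the ACLY KO range. The log2 fold change against WT was 1.85 ± 0.25 (adjusted p = 3.89e-05) in ACLY KO, 2.34 ± 0.27 (adjusted p = 8.54e-06) in DKO1 and 0.37 ± 0.27 (adjusted p = 0.367) in ACSS2 KO. DKO1 and ACLY KO differed by 0.49 ± 0.27 (adjusted p = 0.198), and by 0.91 (adjusted p = 0.00186) without DKO1 library 4.

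C1ra and C1s1 encode the paired proteases of the first component, C1r and C1s, and lie beside each other on chromosome 6, at chr6:124512405-124523443 on the plus strand and chr6:124530345-124542359 on the minus strand. C1s1 had 86, 89, 71.7 and 93.5 in WT and 132, 166 and 181 in ACSS2 KO, against 505, 481, 493 and 462 in ACLY KO and 200.2, 208 and 183 in DKO1. C1ra had 193, 172, 203 and 186 in WT and 326, 285 and 337 in ACSS2 KO, against 535, 507.5, 555 and 489.7 in ACLY KO and 431, 442 and 406 in DKO1. Both genes ran from WT through ACSS2 KO and DKO1 to ACLY KO without overlap between genotypes. In ACLY KO the rise was 2.51 ± 0.11 (adjusted p = 1.13e-09) for C1s1 and 1.46 ± 0.08 (adjusted p = 7.25e-09) for C1ra. The matching values were 0.89 ± 0.12 (adjusted p = 9.11e-05) and 0.74 ± 0.08 (adjusted p = 2.64e-05) in ACSS2 KO, with 1.21 ± 0.12 (adjusted p = 1.7e-06) and 1.17 ± 0.08 (adjusted p = 1.06e-07) in DKO1. Their near copies C1s2 and C1rb had at most 5.80 and 0.

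C4b, whose protein is cut by C1s, had 27.8, 30.4, 16.9 and 17.6 in WT and 51.4, 63.2 and 63.4 in ACSS2 KO, against 50.3, 36.7, 53.9 and 44.5 in ACLY KO and 135, 149.5 and 96.4 in DKO1. WT lay below and DKO1 above all others, and ACLY KO and ACSS2 KO overlapped. C4b rose in ACLY KO (1.0 ± 0.21, adjusted p = 0.00153), ACSS2 KO (1.36 ± 0.23, adjusted p = 0.000701) and DKO1 (2.42 ± 0.23, adjusted p = 1.51e-06). Its near copy C4a had means between 15.6 and 23.8, and reads may have been split between them. Cfi, which encodes the protease that inactivates C3b and C4b, had 45.5, 54.1, 53.6 and 36.1 in WT and 137, 113 and 142 in ACSS2 KO, against 42.8, 28.2, 24 and 30.8 in ACLY KO and 35.5, 41.5 and 52.3 in DKO1. ACSS2 KO lay above the other 3 genotypes, which overlapped. Cfi rose in ACSS2 KO (1.46 ± 0.21, adjusted p = 0.000199) and was lower in ACLY KO (-0.59 ± 0.19, adjusted p = 0.0223) with ranges that overlapped WT and a call that was lost when WT library 2 or 3 or ACLY KO library 2 or 3 was left out (adjusted p between 0.0575 and 0.0734), and in DKO1 had a difference of -0.13 ± 0.21 (adjusted p = 0.614). Cfb, which encodes a factor of the alternative pathway, stayed under the limit with 22.4, 18.3 and 9.24 in DKO1 and 2.98, 5.73 and 3.12 in ACSS2 KO.

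The genes of the inter-alpha-trypsin inhibitor heavy chains moved in different directions. Itih2, at chr2:10094593-10131396 on the minus strand, had 341, 284, 362 and 353 in WT and 137, 166 and 181.5 in ACSS2 KO, against 95, 67.8, 64.2 and 81.5 in ACLY KO and 43.6, 30.9 and 43 in DKO1. The genotypes did not overlap. Itih2 fell against WT in ACLY KO (-2.12 ± 0.15, adjusted p = 1.41e-07), in ACSS2 KO (-1.05 ± 0.17, adjusted p = 0.000435) and likewise in DKO1 (-3.07 ± 0.17, adjusted p = 1.06e-08), where the mean was 8.55-fold below WT, the largest fall of the set in that comparison. Itih3, at chr14:30908572-30923760 on the minus strand, had 89, 107, 87.4 and 85.4 in WT and 82.6, 74.3 and 63.5 in ACSS2 KO, against 259.9, 265, 231 and 291 in ACLY KO and 179, 196 and 378 in DKO1. ACLY KO and DKO1, which overlapped, lay above WT, and ACSS2 KO lay below WT. Itih3 rose in ACLY KO (1.49 ± 0.20, adjusted p = 3.01e-05) as well as in DKO1 (1.36 ± 0.21, adjusted p = 0.000122), and in ACSS2 KO the difference was -0.33 ± 0.21 (adjusted p = 0.296). Itih4, at chr14:30886476-30902353 on the plus strand, next to Itih3 on chromosome 14, had 46.3, 44.2, 60.3 and 57.2 in WT and 85, 103 and 109.9 in ACSS2 KO, against 113, 105, 112 and 111 in ACLY KO and 144, 159 and 159 in DKO1. DKO1 lay above and WT below all others. Itih4 rose in ACLY KO (1.08 ± 0.12, adjusted p = 5.36e-06), ACSS2 KO (0.93 ± 0.13, adjusted p = 0.000135) and DKO1 (1.56 ± 0.13, adjusted p = 3.68e-07). Itih1, in the same cluster, reached 1.18 at most, and Igfbp1, the insulin-like growth factor binding protein of fasting liver, 0.945.

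**Figure D3:**
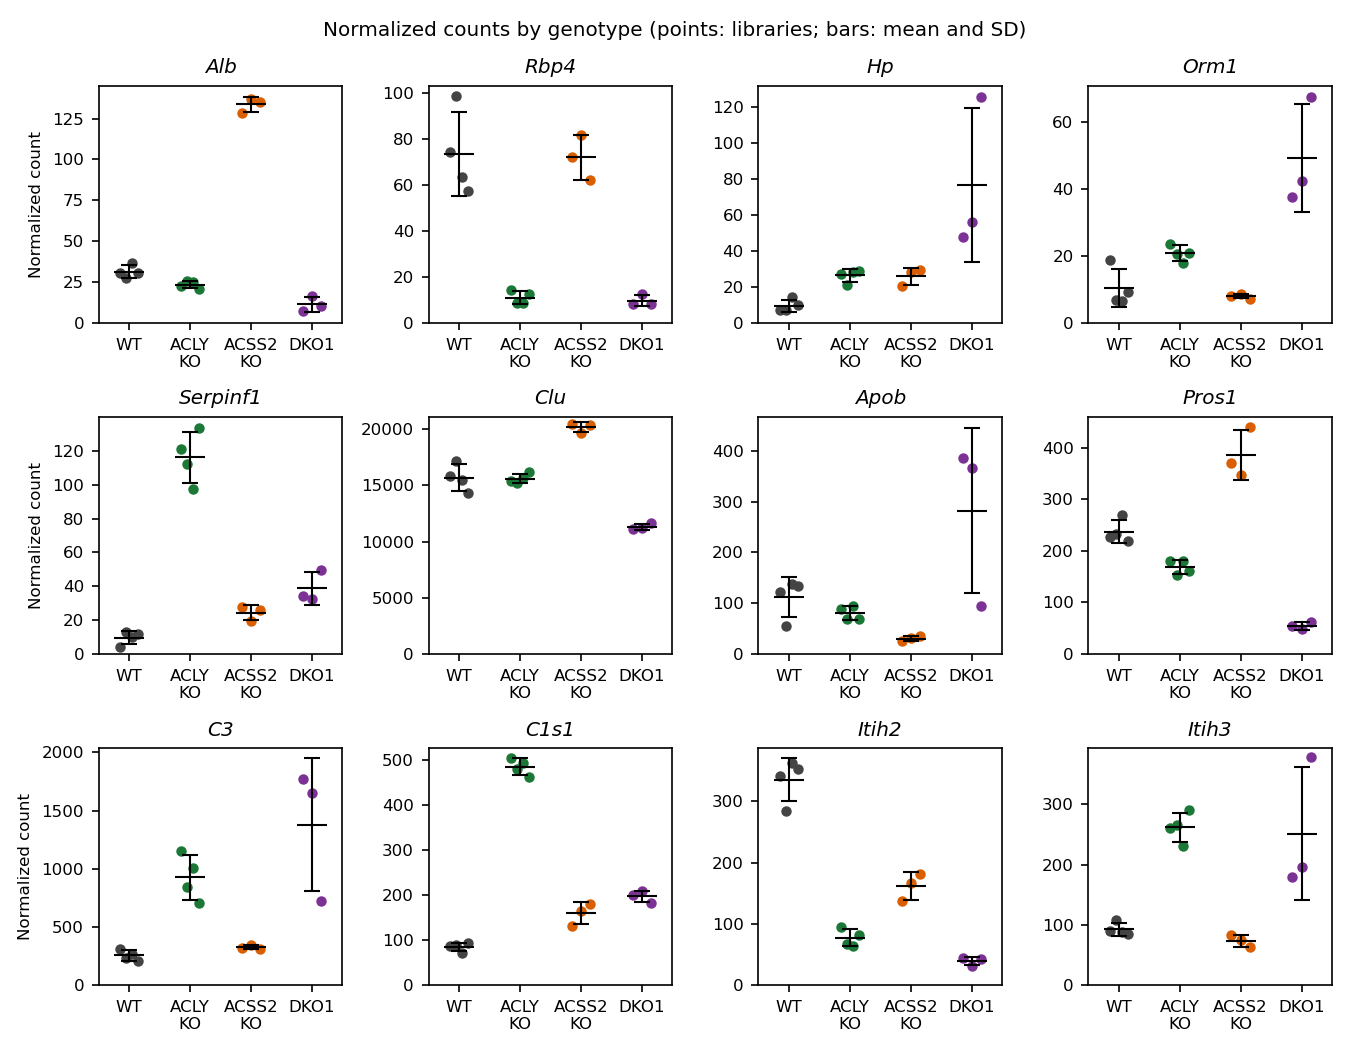
Each panel gives the normalized counts of a gene, with a point for each library and bars for the mean and SD of each genotype (4, 4, 3 and 3 libraries). Alb is high in ACSS2 KO only, Rbp4 is low in both genotypes without Acly, C1s1 and Serpinf1 are highest in ACLY KO, and a DKO1 library stands apart from the other 2 for Hp, Apob, C3 and Itih3.

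DKO1 was next compared with the line it was made from. Between DKO1 and ACLY KO, 12 of the 20 genes differed, 5 higher and 7 lower in DKO1, where 27.9% of all genes tested did (14.3% higher, 13.6% lower). C4b (1.42 ± 0.23, adjusted p = 0.000563), Hp (1.37 ± 0.32, adjusted p = 0.00649), Apob (1.57 ± 0.44, adjusted p = 0.0174), Orm1 (1.16 ± 0.31, adjusted p = 0.0133) and Itih4 (0.48 ± 0.13, adjusted p = 0.0131) rose. Pros1 (-1.62 ± 0.12, adjusted p = 8.23e-07), Serpinf1 (-1.58 ± 0.31, adjusted p = 0.00235), C1s1 (-1.30 ± 0.12, adjusted p = 4.85e-06), Alb (-1.05 ± 0.21, adjusted p = 0.00279), Itih2 (-0.96 ± 0.17, adjusted p = 0.000946), Clu (-0.46 ± 0.06, adjusted p = 0.000172) and C1ra (-0.29 ± 0.08, adjusted p = 0.0192) fell. The call for Apob was lost without DKO1 library 1 (1.22, adjusted p = 0.0642) or 3 (1.26, adjusted p = 0.0724). The call for Orm1 was lost without DKO1 library 4 (0.91, adjusted p = 0.0548) and with a correction for transcript length (0.79, adjusted p = 0.0575). That for C1ra was lost without ACLY KO library 3 (-0.26, adjusted p = 0.0591). Against ACSS2 KO, which shares the guide but was a separate clone, 17 genes differed (10 higher, 7 lower), where 53.7% of all genes did (25.8% higher, 27.8% lower). The largest of these were Alb (-3.52 ± 0.23, adjusted p = 3.92e-08), Apob (2.95 ± 0.47, adjusted p = 0.00015), Pros1 (-2.80 ± 0.13, adjusted p = 1.47e-09) and Rbp4 (-2.78 ± 0.26, adjusted p = 1.06e-06). The mean of Alb was 11.8-fold lower in DKO1 than in ACSS2 KO, and that of Pros1 7.08-fold lower.

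Whether the difference seen with loss of ACSS2 depended on ACLY was tested as an interaction, the change from ACLY KO to DKO1 minus the change from WT to ACSS2 KO. Of the 20 genes 11 passed, 3 above and 8 below 0, where 27.1% of all genes tested did (12% above, 15.1% below). Past the stricter limit there were 5 of 20, against 4.61% of all genes. Alb had the most negative value of the set (-3.11 ± 0.30, adjusted p = 8.88e-06), followed by Serpinf1 (-2.91 ± 0.44, adjusted p = 0.000343), Pros1 (-2.32 ± 0.17, adjusted p = 7.16e-07), C1s1 (-2.19 ± 0.16, adjusted p = 1.05e-06), Proc (-1.42 ± 0.44, adjusted p = 0.0295), C1ra (-1.03 ± 0.12, adjusted p = 3.28e-05), Cfi (-1.0 ± 0.29, adjusted p = 0.0233) and Clu (-0.83 ± 0.09, adjusted p = 2.39e-05). Apob (3.36 ± 0.62, adjusted p = 0.00142), Hpx (2.02 ± 0.69, adjusted p = 0.0459) and Orm1 (1.39 ± 0.44, adjusted p = 0.031) were above 0. Calls for 4 of these depended on single libraries. That of Cfi was lost without ACSS2 KO library 1 or 4 (adjusted p = 0.0549 and 0.0626), that of Proc without ACLY KO library 1 or 4, ACSS2 KO library 1 or 4 or DKO1 library 4 (0.0531 to 0.0683), that of Orm1 without ACLY KO library 2, 3 or 4, any ACSS2 KO library or DKO1 library 4 (0.0502 to 0.0712), and that of Hpx without WT library 1, 2 or 4, ACLY KO library 1, 2 or 3, ACSS2 KO library 1 or 4 or DKO1 library 1 or 4 (0.0521 to 0.112). For 7 genes the difference passed the test on both sides with opposite signs, as for 4.75% of all genes tested. Alb, Pros1, Clu, C1s1, C1ra and Serpinf1 rose from WT to ACSS2 KO and fell from ACLY KO to DKO1, and Apob did the reverse. For 4 genes both differences passed with the same sign, as for 5.52% of all genes, namely Hp, C4b and Itih4, which rose, and Itih2, which fell. Hp, C4b and Itih2 had interaction values of 0.00 ± 0.45 (adjusted p = 0.996), 0.06 ± 0.32 (adjusted p = 0.902) and 0.09 ± 0.23 (adjusted p = 0.805).

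**Figure D4:**
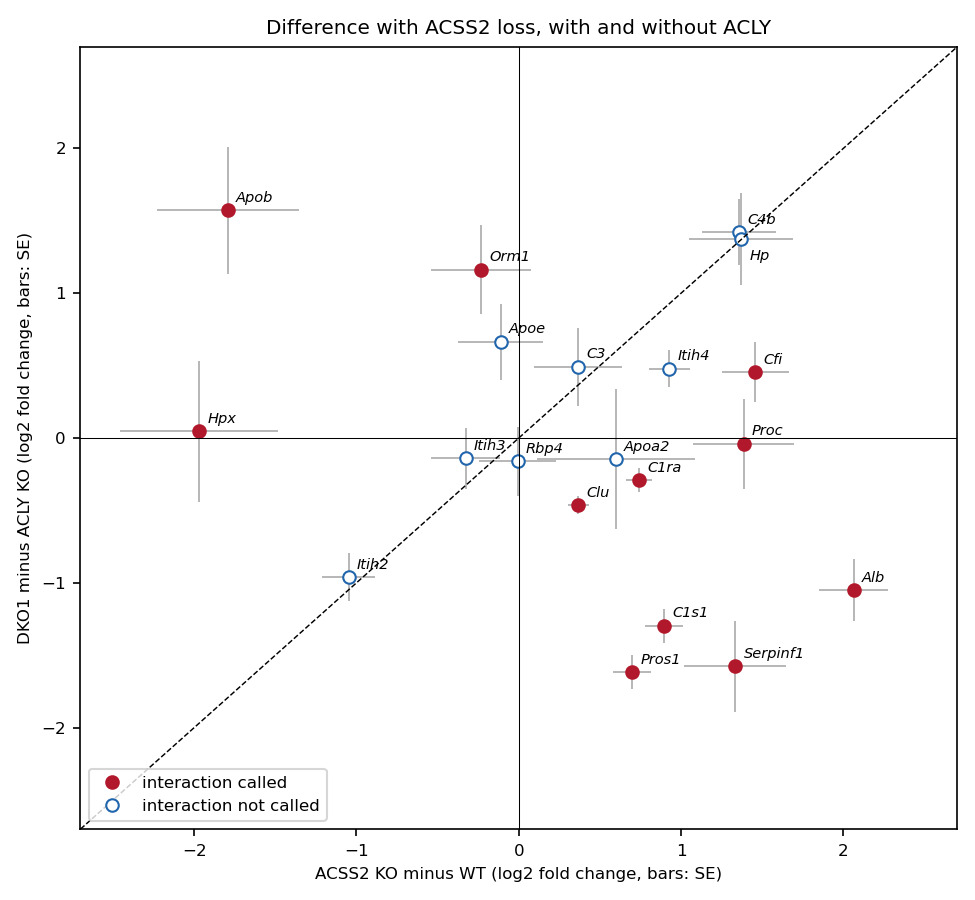
The horizontal axis is the log2 fold change from WT to ACSS2 KO and the vertical axis that from ACLY KO to DKO1, with bars for the standard error, and the dashed line marks equal values. Filled points are the 11 genes whose interaction passed the test. Alb, Pros1, Serpinf1 and C1s1 lie in the lower right corner and Apob in the upper left, while Hp, C4b and Itih2 lie on or near the line.

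Values in some libraries followed transcript length. Across 12577 genes, the deviation of a library from its genotype mean was correlated with exon length at a Spearman rho of -0.606 in DKO1 library 4, -0.527 in WT library 2, -0.515 in ACLY KO library 4 and -0.476 in ACSS2 KO library 1. The deviations within a genotype sum to 0, so the signs in its other libraries are not independent of these. These are correlations across genes of 1 library, which are not replicates. Among the 20 genes of the set the longest is Apob, with 13934 bases of exon. It was 94.3 in DKO1 library 4 and 376 on average in the other 2 libraries, a log2 difference of -1.99. C3, with 5143 bases, was lower there by a log2 difference of -1.24, and the short genes Hp (1.27) and Hpx (1.19) were higher, as was Itih3 (1.01), which has 3638 bases. Over the 20 genes rho was -0.556 in DKO1 library 4 and -0.274 in WT library 2. With both libraries left out, 15, 14 and 15 genes of the set differed from WT in ACLY KO, ACSS2 KO and DKO1, where 68.9%, 47.9% and 68.6% of all genes tested then did, so that the set's share lay nearer to that of all genes than with every library included. The log2 fold change of Apob in DKO1 against WT was then 1.51 (adjusted p = 2.45e-06). That choice of libraries was made after seeing the data. With each library corrected for transcript length instead, 14, 14 and 15 genes of the set differed from WT, where 56.7%, 34.5% and 61.7% of all genes did. The interaction was then called in 9, against 34.8% of all genes. Of all calls in the 6 comparisons, 6 were lost with this correction.

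**Figure D5:**
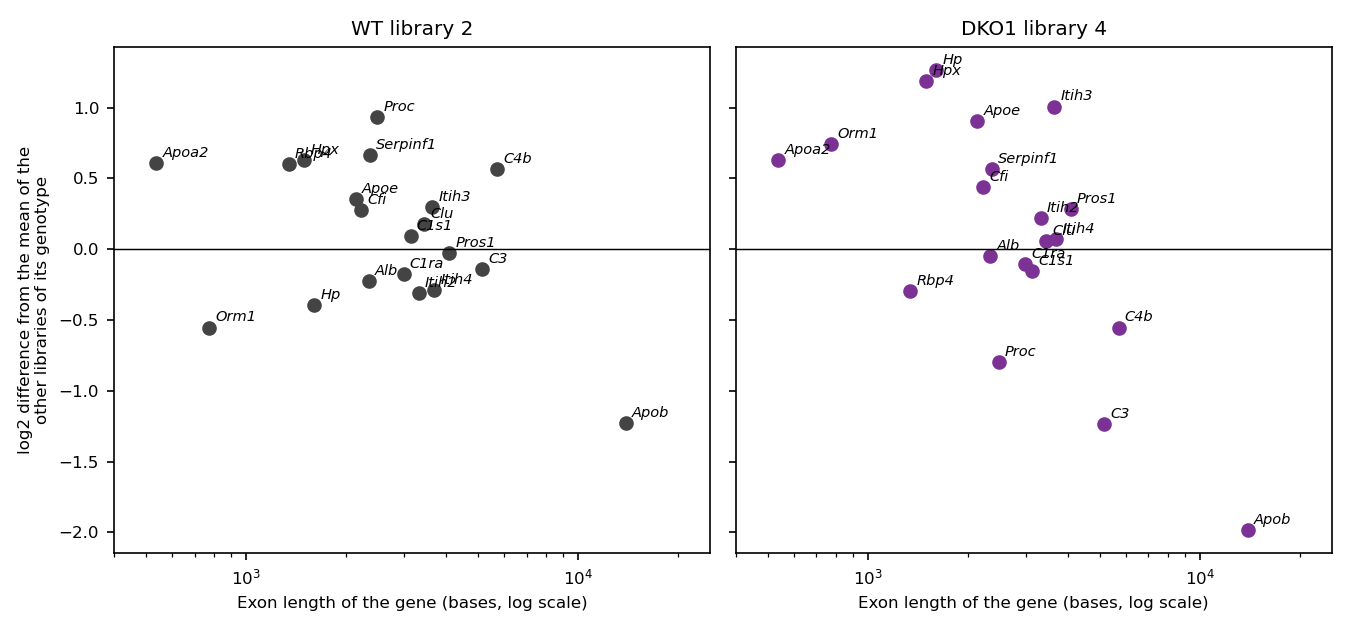
Each point is a gene of the set, placed by its exon length on a log scale and by the log2 difference between 1 library and the mean of the other libraries of its genotype. In DKO1 library 4 the long genes Apob and C3 lie lowest and the short genes Hp and Hpx highest, and in WT library 2 Apob lies lowest.

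Other genes of hepatocyte secretion and identity were read from lists of related genes. The shares of all genes tested that rose and fell, against which the counts below are to be read, were 23.8% and 24.7% in ACLY KO, 15.1% and 11% in ACSS2 KO, and 27.9% and 28.1% in DKO1. Of 59 further plasma protein genes, 23 were tested and 7 were at 0 in every library. In ACLY KO 14 of the 23 rose and 2 fell, in ACSS2 KO 9 rose and 3 fell, and in DKO1 15 rose and 3 fell. Values of these genes are means with the SD over the 4 or 3 libraries of a genotype. Gc, the vitamin D carrier, rose from 216 ± 20.6 in WT to 2012 ± 144.5 in DKO1 with a log2 fold change of 3.22 (adjusted p = 4.49e-11), Lbp, which binds lipopolysaccharide, from 1802 ± 109 to 7940.2 ± 419.5 (2.14, adjusted p = 1.57e-10), and the vitamin E carrier Afm from 26.4 ± 2.71 to 114 ± 8.59 (2.07, adjusted p = 1.84e-08). Of 15 genes for lipoprotein assembly and uptake 11 were tested, with 3 higher and 4 lower in DKO1 against WT. Mttp, whose product loads lipid onto apolipoprotein B, was 806 ± 47.9 in WT and 532 ± 50.5 in ACSS2 KO, against 2221 ± 106 in ACLY KO and 2172 ± 42.5 in DKO1, with log2 fold changes against WT of 1.46 (adjusted p = 2.4e-09) in ACLY KO, 1.43 (adjusted p = 6.97e-09) in DKO1 and -0.60 (adjusted p = 5.44e-05) in ACSS2 KO. Scarb1, the receptor of high density lipoprotein, fell in ACLY KO (-2.28, adjusted p = 2.57e-10) as well as in DKO1 (-1.97, adjusted p = 1.75e-09).

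Of 18 hepatocyte transcription factors 11 were tested, with 3 higher and 6 lower in ACLY KO, 6 higher and 1 lower in ACSS2 KO, and 4 higher and 6 lower in DKO1, each against WT. Hnf4a fell from 172 ± 21.9 in WT to 28.7 ± 8.95 in ACLY KO (adjusted p = 7.99e-07), to 39.8 ± 7.86 in the ACSS2 KO libraries (adjusted p = 3.92e-05) and to 22.4 ± 5.26 with both enzymes lost (adjusted p = 5.51e-07). Foxa2 fell in ACLY KO (-1.87, adjusted p = 6.49e-08) as well as in DKO1 (-1.92, adjusted p = 1.01e-07). Both were named for their small adjusted p and do not stand for the list. Hnf4a was the 1 factor that was lower with ACSS2 alone lost, where 6 rose. Over the 11 factors the median log2 fold change against WT was 0.37 with ACSS2 lost, -0.39 with ACLY lost and -0.50 with both lost. Of 14 genes of interleukin-6 and acute phase signaling 13 were tested, with 3 higher and 2 lower in ACLY KO, 4 higher in ACSS2 KO, and 4 higher and 1 lower in DKO1. Socs3, a target and brake of this pathway, had log2 fold changes of -0.34 (adjusted p = 0.000467) in ACLY KO, 0.66 (adjusted p = 1.22e-05) in ACSS2 KO and 0.60 (adjusted p = 6.08e-06) in DKO1. Lcn2, a secreted acute phase protein, had 2.52 (adjusted p = 1.89e-08) in ACLY KO, 1.46 (adjusted p = 2.09e-05) in ACSS2 KO and 2.27 (adjusted p = 9.79e-08) in DKO1.

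The labeled cell type was checked with hepatocyte markers that are not secreted. Of 22, only 5 were tested, and Tdo2, Cyp8b1 and Otc were among those at 0 in every library. Against WT, 1 rose and 3 fell in ACLY KO, 0 differed in ACSS2 KO, and 2 rose and 3 fell in DKO1. Sums over the list were between 47910.5 and 64958 in WT and between 40958 and 43946 in ACSS2 KO. They were between 34545 and 37758 in ACLY KO and between 26230 and 45168 in DKO1. Each mutant range lay below that of WT, although in ACSS2 KO 0 of the 5 genes tested differed and in DKO1 2 rose. Krt18, a keratin of hepatocytes and bile duct cells, was 27537 ± 4342 in WT and so held a large part of the sum there. The sums thus weigh the highest genes most and do not show a fall of the whole list. Tat, a tyrosine-degrading enzyme, was 27.9 ± 5.54 in WT and 332 ± 54.5 in DKO1 (3.53, adjusted p = 2.54e-08), and Fah, which acts in the same pathway, fell in ACLY KO (-2.67, adjusted p = 1.24e-07) as well as in DKO1 (-2.59, adjusted p = 3.31e-07). All 7 cholangiocyte markers were tested, with 1 higher and 5 lower in ACLY KO as in DKO1 and 1 higher and 2 lower in ACSS2 KO, and Krt7 had 13364 ± 1959 in WT. Their sums were between 37905 and 49932 in WT and 42136 and 45299 in ACSS2 KO, against 31835 and 33788 in ACLY KO and 45811 and 71656 in DKO1. Of 5 fetal liver markers 2 were tested, and Afp was 37 ± 12.2 in WT and 34.3 ± 4.06 in ACSS2 KO, against 127 ± 9.17 in ACLY KO and 209.7 ± 116 in DKO1. Most of the 22 hepatocyte markers were thus too low to be tested.

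Markers named for other liver cells, some of which can make complement or serpin transcripts, were read in the same cultured HCC lines. Several markers of stellate and endothelial cells differed between genotypes. Of 10 stellate cell and fibroblast markers 7 were tested, and 4 rose in each mutant genotype against WT, while 1 fell in ACLY KO and 1 in DKO1. Their sums were between 2191 and 2503 in WT and 5308 and 6242 in ACSS2 KO, against 3603.5 and 3955 in ACLY KO and 2132 and 2243 in DKO1. Col1a1 rose from 428 ± 38.5 in WT to 2454 ± 164 in ACLY KO (2.52, adjusted p = 1.3e-10), and Lum and Pdgfra reached 5.06 and 3.59 at most. Of 8 endothelial markers 3 were tested and all 3 rose in ACLY KO and in DKO1, with sums between 58.6 and 68.2 in WT and 63.6 and 69.7 in ACSS2 KO, against 186 and 207 in ACLY KO and 144 and 194.5 in DKO1, and Stab2 reached 2.04 at most. Of 11 macrophage markers 2 were tested, Csf1r and Cd68, of which 1 rose in DKO1, while Clec4f and C1qc were at 0 and Adgre1 reached 0.855 at most, and the summed level, most of it Csf1r, was between 1097 and 1295 in WT and 1304 and 1394 in ACSS2 KO, against 1155 and 1252 in ACLY KO and 1076 and 1549.5 in DKO1. The part of these markers in the levels of Serpinf1, C3, C1ra and C1s1 was not tested.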

How the data were processed

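RNA was measured in 14 libraries of a mouse HCC cell line (WT 4, ACLY KO 4, ACSS2 KO 3, DKO1 3). The authors enriched poly(A) RNA, sequenced single-end directional libraries, aligned reads with STAR and Illumina's RNA-seq software to GRCm38/mm10, and normalized them with DESeq2 (1.0.1). The counting step and annotation are not given in the sources used here. The deposited values are a signal unit, normalized counts that are not whole reads, so no count model was used. Depth was implied by taking the most frequent low value of a library as 1 read, and since only 39.2% to 71.1% of low values lay on whole multiples of it (within 0.02), reads were not recovered.

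Groups came from the labels. Genes with a mean of at least 10 over all libraries were fitted with limma 3.58.1 (R 4.3.3, trend) on log2(value + 1), with all 14 libraries in one fit and no covariate, and p-values were adjusted (Benjamini-Hochberg) over the 12711 genes tested. The filter, the added 1, normalization and single libraries could change a number. The alternatives were another filter, pseudocount, scaling, a length correction, a replicate block, fits of the compared groups only and leaving out each library. The fit was tested on simulated data. The genes and lists were chosen with earlier results of these data known. Any gene of the set may be named. Values per library are given for the tested genes that, within their role, were among the 3 highest by mean or the 3 most changed, and for other tested or low genes where described. Of each other list at most 3 genes are named, from those with the smallest adjusted p in any comparison against WT. They are thus not typical of their list. Defining markers of other cell types, Acly and Acss2 are named as well. Levels between genes are compared per kilobase of exon (GENCODE M21, GRCm38), promoters are from RefSeq (GRCm38.p6), and 26 symbols damaged into dates could not be matched. The precision is that of 3 or 4 libraries and of the depth, and no interval for counting error is given since the values are not reads.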

Additional observations from a re-analysis of the deposited data

Results flagged for a closer look

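For 11 genes the difference between ACSS2 KO and WT was not the same as that between DKO1 and ACLY KO, by the interaction in limma with adjustment over all genes. The values were -3.11 for Alb (adjusted p = 8.88e-06), -2.91 for Serpinf1 (adjusted p = 0.000343), -2.32 for Pros1 (adjusted p = 7.16e-07) and -2.19 for C1s1 (adjusted p = 1.05e-06). They were -1.42 for Proc (adjusted p = 0.0295), -1.03 for C1ra (adjusted p = 3.28e-05), -1.0 for Cfi (adjusted p = 0.0233) and -0.83 for Clu (adjusted p = 2.39e-05). Above 0 were Apob at 3.36 (adjusted p = 0.00142), Hpx at 2.02 (adjusted p = 0.0459) and Orm1 at 1.39 (adjusted p = 0.031). In 10 of the 11 the 2 estimates had opposite signs, the exception being Cfi. A called interaction favors opposite signs by its construction, and 75.2% of all genes with one had them. The comparison rests on 1 clone for each genotype with the Acss2 guide.

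Itih3 in WT library 2 was 107.3, far from the other 3 WT libraries (a gap of 0.834 of the range of WT, past Dixon's limit for 4 values). This was 1 of 40 groups of 4 examined, and chance flags about 1 in 20.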

How the results depend on the processing

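Of 84 calls (a gene in a comparison), 72 held in every setting run, and none changed direction. The 12 others were lost in some settings, most often C1s1 in DKO1 against ACSS2 KO (15 settings) and Hpx in the interaction (15). The number of genes tested was 20, and 11 with a mean of at least 50 or 13 with at least 10 in every library. With at least 10 in every library, which tests fewer genes, 9 of the 13 differed in ACLY KO against WT, 10 in DKO1 against WT and 7 in the interaction. Of all genes, 46.4%, 54.5% and 27.0% then did. The reported fit had 14, 16 and 11 of 20. With no filter on low values, which tests more, 25 of 51 differed in DKO1 against WT and 26 of 51 in DKO1 against ACSS2 KO. Of all genes, 40.3% and 38.8% then did. The reported fit had 16 and 17 of 20. Leaving out each library in turn gave 13 to 15 for ACLY KO against WT, 14 to 15 for ACSS2 KO against WT, 15 to 16 for DKO1 against WT, 11 to 13 for DKO1 against ACLY KO, 15 to 18 for DKO1 against ACSS2 KO and 7 to 12 for the interaction, the 7 without ACSS2 KO library 4. The share of all genes called was then 43.6% to 61.5%, 18.5% to 40.0% and 50.5% to 61.3% for the comparisons with WT. It was 21.7% to 32.0%, 45.6% to 57.9% and 20.7% to 33.5% for the others in that order.

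Clu in ACLY KO against WT, not called, changed sign to 0.15 with quantile normalization (adjusted p = 0.0191), 0.11 with equal library totals, 0.00905 with the length correction and 0.0404 without WT library 2 and DKO1 library 4, and ranged from -0.0476 to 0.0404 with single libraries left out. Itih3 in DKO1 against ACLY KO ranged from -0.47 to 0.0635, positive without DKO1 library 1. Calls were gained for Alb in ACLY KO against WT with quantile normalization (-0.58, adjusted p = 0.035), in a fit of only the groups compared (-0.41, adjusted p = 0.0489) and without DKO1 library 1 or 3, for Apoe in DKO1 against WT with equal totals (0.66, adjusted p = 0.0358) and without DKO1 library 3, and for Itih4 in the interaction with equal totals (-0.60, adjusted p = 0.0311), without WT library 3 (adjusted p = 0.0455) and without ACSS2 KO library 1 (adjusted p = 0.0438). The cause was not tested. Equal totals moved the median of all genes by 0.10 in ACLY KO and 0.11 in ACSS2 KO against WT and by -0.16 in the interaction.

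Libraries with the same number did not deviate together (18 pairs, correlations -0.431 to 0.447, 5 above 0.1), so the numbers were not taken as pairs. With the replicate block the counts were 14, 14, 15, 12, 17 and 9 for the 6 comparisons in that order. Leaving out WT library 2 and DKO1 library 4, an alternative chosen after seeing the data, gave 15, 14, 15, 14, 16 and 10, while the share of all genes called rose to 68.9%, 47.9%, 68.6%, 43.4%, 66.6% and 44.1%. ACLY KO library 4 and ACSS2 KO library 1, with length trends nearly as strong, were kept there and were each left out singly. Depth limits the 31 low genes, where a value near 1 is about 1 read.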
